A study of Mus musculus with 15 samples.

Results

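Metallothioneins are small cysteine-rich proteins that bind zinc and copper, and the metal response is the group of genes through which a cell senses and moves these metals. The 4 genes described here are Mt1 and Mt2, the metallothioneins made in most tissues, Mtf1, the transcription factor that senses zinc, and Slc30a1, which encodes the zinc exporter ZnT1 of the plasma membrane. They were chosen by name, and their FPKM values (fragments scaled to transcript length and library size) were summed over the annotated transcripts of each gene, which gave all 4 members among the 13933 genes that the files of all mice share. All 4 members passed the filter on low values, at least 1 FPKM in at least 5 mice, which kept 12366 genes.

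The data came from renal tissue of 15 wild-type (WT) male C57BL/6 mice, which were 8 weeks old when obtained and fell into 3 groups of 5. Control mice carried an osmotic pump with saline and received water by gavage. The Ang II group received angiotensin II, a peptide that raises blood pressure, from the pump at 500 ng/kg/min, also with water. The Ang II + QDG group received the same infusion together with Qingda granule (QDG), a Chinese herbal preparation, at 1.145 g/kg/day. All groups were treated for 28 days, and a group with QDG alone is not part of the comparisons. The Ang II + QDG group is also called the QDG group below, and Ang II + QDG vs. Ang II the QDG comparison. This comparison shares its 5 Ang II mice with Ang II vs. Control. Mice are numbered within a group only to name them.

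MTF1 binds zinc through its zinc fingers, enters the nucleus and binds metal response elements (MREs) in front of Mt1, Mt2 and Slc30a1. Metallothioneins are also known to be induced by cadmium, by oxidants acting on antioxidant response elements (AREs), and by glucocorticoids. In the kidney they are best known in the proximal tubule, which takes up metallothionein from the filtrate and stores cadmium bound to it.

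Mt2 lay at chr8:94172664-94173568 and Mt1 at chr8:94179082-94180327, both on the plus strand of GRCm38, with 5513 bases between them. Mtf1 was annotated at chr4:124802104-124849800 and Slc30a1 at chr1:191906767-191913247, also on the plus strand. The sequences around the starts of these genes are shown because they hold, or lack, the letters that MTF1 is known to bind. Each is 280 bases of RefSeq sequence on GRCm38.p6, plus strand, running from before the annotated RefSeq start to just past it. Capitals mark matches on either strand to the core of the MRE, searched as TGCACNC and TGCGCNC, and to the core of the ARE, searched as TGACNNNGC.
Mt1, chr8:94178839-94179118: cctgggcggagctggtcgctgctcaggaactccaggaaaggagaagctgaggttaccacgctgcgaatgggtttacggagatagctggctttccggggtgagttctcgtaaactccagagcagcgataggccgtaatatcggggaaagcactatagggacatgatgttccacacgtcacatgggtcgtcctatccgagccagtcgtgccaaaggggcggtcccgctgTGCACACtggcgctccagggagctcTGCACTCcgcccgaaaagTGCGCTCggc
Mt2, chr8:94172368-94172647: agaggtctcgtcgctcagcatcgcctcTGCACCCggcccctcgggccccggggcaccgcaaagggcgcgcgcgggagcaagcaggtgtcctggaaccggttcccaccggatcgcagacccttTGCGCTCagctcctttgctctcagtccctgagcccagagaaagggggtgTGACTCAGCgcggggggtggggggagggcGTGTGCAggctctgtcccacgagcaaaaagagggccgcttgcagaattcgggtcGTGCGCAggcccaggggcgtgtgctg
Slc30a1, chr1:191906531-191906810: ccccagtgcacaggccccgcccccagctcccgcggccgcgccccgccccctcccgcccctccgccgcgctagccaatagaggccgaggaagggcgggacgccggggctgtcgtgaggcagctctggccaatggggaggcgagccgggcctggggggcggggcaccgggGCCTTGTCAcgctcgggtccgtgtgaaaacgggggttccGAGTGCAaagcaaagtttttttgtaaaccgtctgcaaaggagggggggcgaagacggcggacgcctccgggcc
Mtf1, chr4:124802299-124802578: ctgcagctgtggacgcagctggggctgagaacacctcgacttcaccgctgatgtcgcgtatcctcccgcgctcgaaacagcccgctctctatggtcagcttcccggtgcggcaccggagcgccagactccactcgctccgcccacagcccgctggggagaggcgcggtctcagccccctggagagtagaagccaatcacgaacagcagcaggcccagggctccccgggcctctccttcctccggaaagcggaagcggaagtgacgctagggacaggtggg

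The Mt2 window held 4 MRE matches and 1 ARE match, and the Mt1 window held 3 MRE matches and 0 ARE matches. In the Slc30a1 window there was 1 match to each motif, both on the minus strand. The Mtf1 window held 0 matches to either motif. None of the matches overlapped another. Counting from 1 at the annotated RefSeq start, the Mt1 matches lay at −23 to −17, 3 to 9 and 21 to 27. Those of Mt2 lay at −223 to −217, −128 to −122, −50 to −44 and 5 to 11. The MRE match of Slc30a1 lay at −43 to −37, and the ARE matches lay at −79 to −71 for Mt2 and at −82 to −74 for Slc30a1. Among 32851 RefSeq windows of the same length, 24.1% held at least 1 MRE match, 1.73% at least 3 and 0.405% at least 4, and 11.5% held at least 1 ARE match. A match describes the letters only, and the absence of one concerns this window only. These RefSeq starts are not the same bases as the gene starts given above. The Mt2 window ends at base 94172647 of chr8, before the Mt2 start of 94172664 given above, so all its matches lie before that start. Whether these RefSeq starts are the ones used in kidney was not tested.

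**Figure D1:**
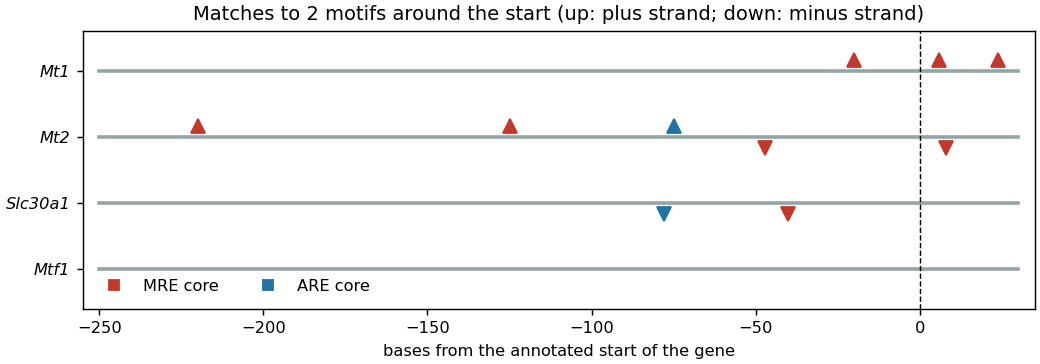
Positions of the motif matches in the 4 windows, with bases from the annotated RefSeq start on the x axis and 1 line per gene. Red triangles are MRE cores and blue triangles ARE cores, pointing up for the plus strand and down for the minus strand. Mt2 carries 4 red triangles, Mt1 3, Slc30a1 1 and Mtf1 none.

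Because Mt1 and Mt2 encode such similar proteins, their coding sequences are shown with the bases that differ in capitals, so that it can be seen how far reads can tell them apart. Both are 186 bases long and come from the reference transcripts in the GENCODE M21 annotation.
Mt1: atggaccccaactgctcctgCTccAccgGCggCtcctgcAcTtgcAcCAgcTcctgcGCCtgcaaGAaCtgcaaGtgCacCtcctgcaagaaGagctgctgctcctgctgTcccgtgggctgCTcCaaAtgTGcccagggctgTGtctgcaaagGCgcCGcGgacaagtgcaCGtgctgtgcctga
Mt2: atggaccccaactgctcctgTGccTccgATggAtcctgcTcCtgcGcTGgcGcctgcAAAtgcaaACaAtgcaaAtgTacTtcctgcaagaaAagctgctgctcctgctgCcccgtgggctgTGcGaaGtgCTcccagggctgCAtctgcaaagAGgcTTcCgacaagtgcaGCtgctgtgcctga
They differed at 38 bases, an identity of 79.6%. Of the 62 codons of each, the stop codon included, 20 were tgc or tgt, the codons for cysteine. The longest run of bases shared in 1 stretch by the 2 mRNAs was 20, over the whole reference transcripts of 549 and 511 bases.

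Ordered by FPKM, which is scaled to transcript length, the members stood as Mt1, Mt2, Slc30a1 and Mtf1 in each of the 15 kidneys, and no value of one gene reached into the range of the next. The mean FPKM over all mice was 174.7 for Mt1, 63.64 for Mt2, 18.47 for Slc30a1 and 4.143 for Mtf1. Among the 12366 genes tested these means stood at the percentiles 97.3, 92.0, 75.4 and 35.4. The 2 metallothioneins were thus among the more abundant mRNAs of the tissue by this measure, whereas the mRNA of their regulator was below the middle of the range.

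In Ang II vs. Control, Mt1 and Slc30a1 were upregulated, Mt2 had a difference of nearly the same size that did not pass the test, and Mtf1 had a small one. In total 2 of the 4 members were higher at an adjusted p under 0.05, and 0 were lower, where 4.95% of all genes tested were called higher and 0.995% lower. At an unadjusted p under 0.05 there were 3 of 4, and 22.7% of all genes. The median log2 fold change of the members was 0.508, and that of all genes 0.0829. The test was limma's moderated test on log2(FPKM + 1), fitted over all 15 mice at once, with Benjamini-Hochberg adjustment over the 12366 genes, and each log2 fold change below is on this scale.

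Mt1, whose protein buffers free zinc and copper and scavenges cadmium, had 157, 165, 111, 156 and 109 FPKM in the 5 Control kidneys. The Ang II kidneys had 193, 154, 287, 197 and 267 FPKM. The Ang II + QDG kidneys had 167, 163, 139, 187 and 168 FPKM. The 2 highest values of the series, in Ang II mice 3 and 5, stood well apart from the rest, and 4 of the 5 Ang II mice were above the highest Control mouse, while Ang II mouse 2 lay inside the Control range. Group means were 139.7 ± 27.2 FPKM for Control, 219.7 ± 55.49 for Ang II and 164.6 ± 17.28 for the QDG group (SD, n = 5 each). The log2 fold change of Ang II vs. Control was 0.64 (standard error 0.17, 95% interval 0.27 to 1.00, adjusted p = 0.0421 from limma), a 1.55-fold difference. This call was lost without any 1 of 11 of the 15 mice, and it was kept only without Control mouse 2, Ang II mouse 2, Ang II + QDG mouse 3 or Ang II + QDG mouse 4. Over all 15 omissions the log2 fold change was 0.53 to 0.75 and the adjusted p from limma 0.03 to 0.1. Median scaling gave 0.53 (adjusted p = 0.104 from limma) and quantile normalization 0.57 (adjusted p = 0.0839 from limma).

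Slc30a1, whose product carries zinc out of the cell, had 15.8, 16.7, 14.4, 18.0 and 14.7 FPKM in Control. After Ang II the values were 19.8, 20.2, 21.3, 23.3 and 22.8 FPKM. With QDG they were 19.4, 17.4, 18.9, 17.2 and 17.4 FPKM. All Ang II mice were above all Control mice, a separation that 6.49% of the genes tested showed in this direction. The mice given QDG lay between, overlapping with Control and not with Ang II. The means were 15.9 ± 1.497 FPKM for Control, 21.47 ± 1.536 for Ang II and 18.06 ± 1.03 for the QDG group (SD, n = 5 each), and the coefficients of variation, 9.42%, 7.16% and 5.71%, were below those of Mt1 at 19.5%, 25.3% and 10.5%. The log2 fold change of Ang II vs. Control was 0.41 (standard error 0.071, 95% interval 0.26 to 0.56, adjusted p = 0.00822 from limma), a 1.33-fold difference. It passed the test under each of the 8 other settings and without each mouse in turn, with a log2 fold change of 0.31 to 0.46 and an adjusted p from limma of 0.00698 to 0.0367.

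Mt2, the second of the inducible metallothioneins, had 51.0, 57.3, 40.5, 65.2 and 42.2 FPKM in Control kidneys. The Ang II mice had 74.0, 59.4, 83.0, 71.3 and 105 FPKM. The Ang II + QDG mice had 78.8, 61.1, 45.3, 56.2 and 64.1 FPKM. As for Mt1, 4 of the 5 Ang II mice were above the highest Control mouse and Ang II mouse 2 was not. The means were 51.25 ± 10.34, 78.57 ± 17.1 and 61.1 ± 12.2 FPKM (SD, n = 5 each) in the same order. For Ang II vs. Control the log2 fold change was 0.60 (standard error 0.17, 95% interval 0.23 to 0.97, adjusted p = 0.0561 from limma), so that Mt2 narrowly missed the threshold. Whether the changes of the 2 genes differ is addressed by their ratio, given further on. Without Control mouse 4, Ang II mouse 2, Ang II + QDG mouse 1 or Ang II + QDG mouse 3 the Mt2 difference passed the test, and over the 15 omissions it was 0.49 to 0.70 with an adjusted p of 0.0412 to 0.126 from limma.

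Mtf1, the zinc sensor upstream of the other members, had 4.10, 3.28, 3.66, 3.13 and 4.22 FPKM in Control. Ang II mice had 2.70, 5.13, 4.19, 5.26 and 5.14 FPKM. The QDG group had 5.24, 3.08, 4.30, 3.91 and 4.80 FPKM. All groups overlapped, and the lowest value of the series was in Ang II mouse 1. The log2 fold change of Ang II vs. Control was 0.21 (standard error 0.15, 95% interval −0.12 to 0.54, adjusted p = 0.454 from limma). That interval leaves room for a rise as large as that of Slc30a1. Without Ang II mouse 1 the difference was 0.34 (adjusted p = 0.133 from limma), and quantile normalization gave 0.11 (adjusted p = 0.761 from limma).

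**Figure D2:**
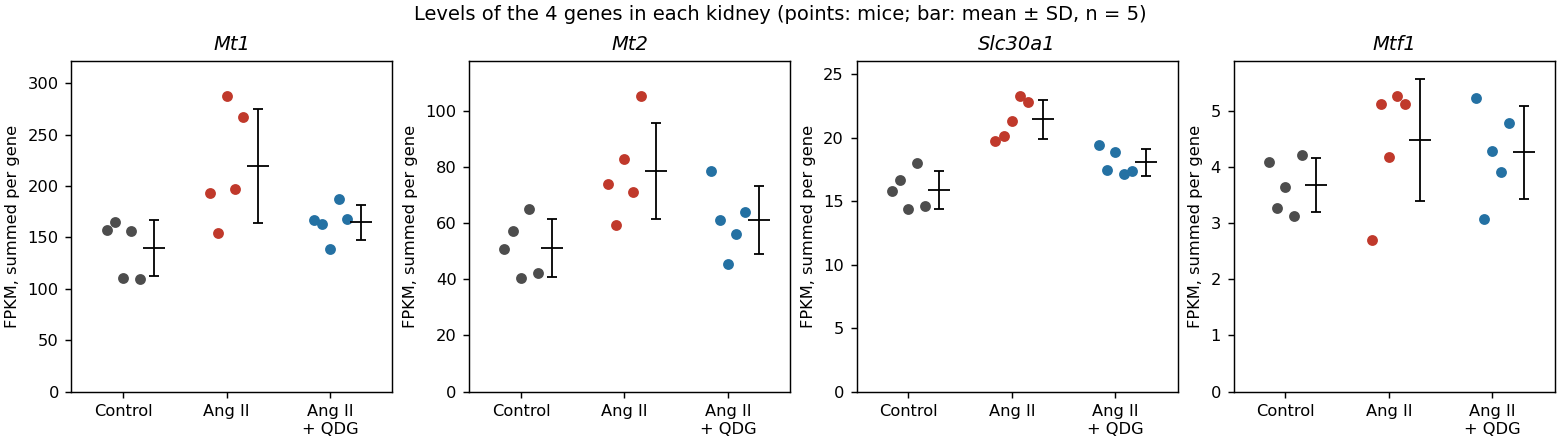
FPKM summed per gene for Mt1, Mt2, Slc30a1 and Mtf1, with 1 point per mouse in Control (grey), Ang II (red) and Ang II + QDG (blue), and the mean ± SD (n = 5) beside the points. For Slc30a1 the 5 red points lie above all grey and blue points, whereas for Mt1 and Mt2 1 red point lies inside the Control range and for Mtf1 the groups overlap.

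In the QDG comparison, 0 of the 4 members passed the adjusted threshold of limma, where 0.526% of all genes were called higher and 1.29% lower. At an unadjusted p under 0.05 there were 2 of 4, Mt1 and Slc30a1, and 16.4% of all genes passed that criterion. The median of the 4 fitted differences was −0.296, against −0.0185 over all genes. Slc30a1 had the clearest separation, because all 5 Ang II + QDG mice were below all 5 Ang II mice, as in 3.44% of the genes tested. Its log2 fold change was −0.24 (95% interval −0.39 to −0.08, adjusted p = 0.102 from limma). For Mt1 the log2 fold change was −0.38 (95% interval −0.75 to −0.02, adjusted p = 0.27 from limma), and 1 of the 5 Ang II + QDG mice lay below the lowest Ang II mouse. Mt2 had a log2 fold change of −0.35 (95% interval −0.73 to 0.02, adjusted p = 0.328 from limma) and Mtf1 one of −0.05 (95% interval −0.38 to 0.28, adjusted p = 0.92 from limma). For both genes the groups overlapped. The Mtf1 difference had no stable direction, since it was −0.18 without Ang II mouse 1, 0.0069 without Ang II mouse 4 and 0.040 without Ang II + QDG mouse 2.

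Against Control, 0 of the 4 members of the QDG group passed the adjusted threshold of limma, and 1 of 4, Slc30a1, had an unadjusted p under 0.05. Over all genes 0.097% were called higher and 0.0323% lower, and 14.4% had an unadjusted p under 0.05. The log2 fold changes were 0.25 for Mt1 (adjusted p = 0.522 from limma), 0.25 for Mt2 (adjusted p = 0.539), 0.16 for Mtf1 (adjusted p = 0.67) and 0.18 for Slc30a1 (95% interval 0.02 to 0.33, adjusted p = 0.281). For Slc30a1 2 of the 5 Ang II + QDG mice were above the highest Control mouse. These small differences moved by more than 1.5 times with median scaling, to 0.16 for Mt1, 0.16 for Mt2, 0.090 for Mtf1 and 0.091 for Slc30a1. The Mtf1 difference also moved to 0.067 with quantile normalization and to 0.097 and 0.25 without Ang II + QDG mice 1 and 2, and the Mt2 difference to 0.15 without Ang II + QDG mouse 1. The study called transcripts at a fold change of at least 2 with a p under 0.05. With these limits applied to gene sums on the log2(FPKM + 1) scale and to limma's unadjusted p, 0 members were called in any comparison. Of all genes, 1.04% were called in Ang II vs. Control, 0.817% in the QDG comparison and 0.728% for the QDG group against Control.

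FPKM values are shares of each library, so the composition of the libraries bears on them. Mitochondrially encoded genes held 18.55% to 20.72% of the shared FPKM in Control, 15.36% to 16.02% with Ang II and 16.95% to 19.83% in the QDG group. As many as 64.8% of all genes had a positive difference in Ang II vs. Control. With the mitochondrially encoded genes left out and each mouse rescaled, the Mt1 difference was 0.62 (adjusted p = 0.0507 from limma), which misses the threshold. The tissue carried the markers of kidney, with all 7 proximal tubule markers and all 5 of the thick ascending limb and distal tubule in every file, and summed proximal tubule levels of 4829 to 16430, 5015 to 7022 and 7216 to 11920 FPKM in the 3 groups in that order. Of the 7 markers 0 passed limma's adjusted threshold in Ang II vs. Control, 4 had an unadjusted p under 0.05, against 22.7% of all genes, and they did not move together. Kap, the largest part of the sum by group means, averaged 6639, 2677 and 6840 FPKM, whereas Slc34a1, the phosphate transporter, averaged 2019, 2500 and 2250 FPKM. For Slc34a1 every Ang II mouse was above every Control mouse, as in 6.49% of all genes. In Ang II the median of Kap, 2086 FPKM, was below the lowest Slc34a1 value, 2113 FPKM. Of 4 podocyte markers 2 were called higher in Ang II vs. Control, against 4.95% of all genes, and all 4 had a positive difference. Podxl was among those called, with a log2 fold change of 0.35 (adjusted p = 0.0277 from limma). The 4 markers summed to 76.61 to 85.66, 103.2 to 129.9 and 100.4 to 127.5 FPKM in Control, Ang II and QDG mice. Of 6 leukocyte markers 3 were in all files, and Cd3e, Cd79a and Itgam were not among the shared genes. These 3 summed to 3.833 to 5.539 FPKM in Control, 2.588 to 4.178 with Ang II and 3.653 to 7.82 in the QDG group. Fat markers summed to 26.63 to 141.7, 25.11 to 231.8 and 40.01 to 83.5 FPKM in Control, Ang II and QDG mice. The medians of these sums were 31.77, 37.18 and 48.1 FPKM. Of 5 adrenal markers only Star was among the shared genes, at 0.6917 to 1.451 FPKM. The part of these differences in the results for the members was not tested. In bulk tissue, fewer cells of a type and less RNA per cell cannot be told apart.

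The transcripts behind the sums differed between the members. Mt1 rested on 1 transcript of 549 bases, ENSMUST00000034215, which made up 95.6% to 99.7% of the gene's FPKM and corresponded to 4364 to 12430 reads per mouse. Its counting error at the lowest of these is 1.51%, far below the spread between mice. Mt2 rested on ENSMUST00000034214, 511 bases long, with 1554 to 4136 reads and a counting error of 2.54% at the lowest, and Slc30a1 on ENSMUST00000044954 with 5652 to 9193 reads. Fitted as single transcripts among 20987, the Ang II vs. Control log2 fold changes were 0.65 for the Mt1 transcript (adjusted p = 0.0714 from limma), 0.60 for the Mt2 transcript (adjusted p = 0.0921) and 0.41 for the Slc30a1 transcript (adjusted p = 0.021). Only the last passed the threshold at the level of transcripts.

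Mtf1 was the exception, since its sum mixed a coding mRNA with a short noncoding transcript. The coding transcript ENSMUST00000030723, 7631 bases long, corresponded to 384 to 1592 reads but made up only 23.5% to 65.5% of the FPKM sum. The rest came from ENSMUST00000147452, a retained-intron transcript of 781 bases at chr4:124802582-124805378 with 71 to 156 reads. The coding transcript had 2.18, 2.0, 2.39, 1.13 and 2.33 FPKM in Control. Ang II mice had 0.635, 2.63, 2.49, 2.49 and 2.54 FPKM. The QDG group had 2.72, 1.89, 2.38, 2.17 and 2.02 FPKM. Ang II mouse 1 was low and the other 4 Ang II mice lay close together, above all Control mice. The fit that follows includes Ang II mouse 1, and no transcript fit was made without it. The log2 fold change of Ang II vs. Control was 0.03 for the coding transcript (adjusted p = 0.961 from limma) and 0.32 for the retained-intron transcript (adjusted p = 0.333 from limma). In FPKM the coding transcript went from a mean of 2.007 to 2.158 and the retained-intron transcript from 1.671 to 2.327, and neither difference passed the test.

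Some members overlap genes on the other strand, and the strand of the counting is not given in the sources used here. The antisense gene Gm45774, at chr8:94170748-94173412, overlaps Mt2 by 749 bases and was measured at 0.675 to 2.03 FPKM, so reads of the pair cannot be told apart without strand. Mtf1 overlaps the gene 1110065P20Rik by 721 bases, which was measured at 7.2 to 18.3 FPKM, and Slc30a1 overlaps the antisense gene 1700034H15Rik by 761 bases.

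Mt1 and Mt2 varied together from mouse to mouse. Over the 15 mice Pearson's r of log2(FPKM + 1) was 0.885 (permutation p = 4e-05, adjusted p = 0.00024) and Spearman's rho 0.814 (permutation p = 0.00042, adjusted p = 0.00084), with p-values adjusted over 6 relations. For deviations from the group means r was 0.773 (permutation p = 0.00093, adjusted p = 0.0014) and rho 0.771 (permutation p = 0.0013, adjusted p = 0.0016). The relation was thus also present in deviations pooled over all groups, and it was not tested in each group alone. Without Ang II mice 3 and 5, the farthest from the median of Mt1, r was 0.835 and rho 0.72 over 13 mice (permutation p = 0.0004 and 0.0071, adjusted p = 0.00084 and 0.0071). Leaving out 1 mouse at a time kept r between 0.85 and 0.92.

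The ratio of Mt1 to Mt2 in FPKM was 2.74 ± 0.264 in Control, 2.79 ± 0.381 in Ang II and 2.76 ± 0.462 in the QDG group (SD, n = 5 each). Control mice had 3.09, 2.87, 2.73, 2.4 and 2.59. Ang II mice had 2.6, 2.6, 3.46, 2.77 and 2.54. The ratio was between 2.12 and 3.33 in the mice given QDG, and all 3 groups overlapped. The mean log2 ratio of Ang II minus Control was 0.032 (exact permutation p = 0.762, two-sided, adjusted p = 0.976 over 3 comparisons), that of the QDG group minus Ang II −0.030 (exact permutation p = 0.825) and that of the QDG group minus Control 0.0019 (exact permutation p = 0.976). A change in one gene relative to the other was not detectable with 5 mice a group.

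**Figure D3:**
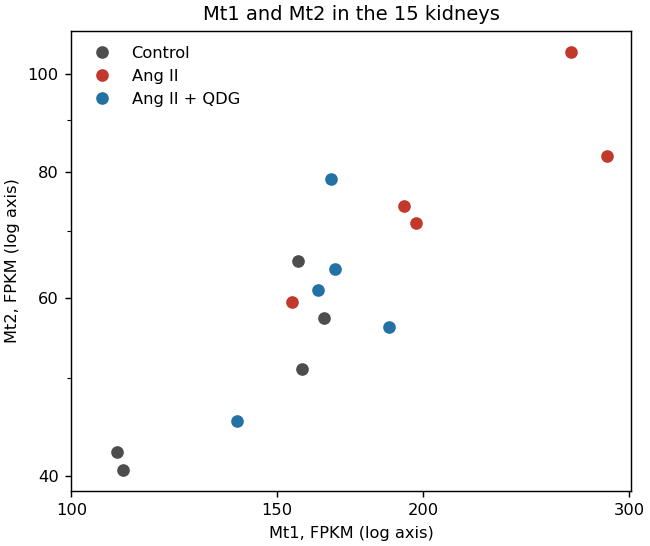
Mt1 against Mt2 in FPKM, both on log axes, with 1 point per mouse coloured by group. The points run along 1 rising band (r = 0.885), with Ang II mice 3 and 5 at its upper end and 2 Control mice at its lower end.

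Among all genes tested, Mt2 was the gene most like Mt1 in its pattern over the 15 mice (r = 0.885), followed by Gm45774 (0.876), Glul (0.843), Hspa14 (0.839) and Higd1a (0.833). Glul encodes glutamine synthetase and Higd1a a hypoxia-induced protein of mitochondria. Those most like Mt2 were Gm45774 (0.939), Higd1a (0.893), Mt1 (0.885), Gm8566 (0.875) and Gm9794 (0.843). Gm45774 is the antisense neighbour named above, whose reads cannot be told apart from those of Mt2 without strand. Higd1a is on both lists, at 9.102, 14.29 and 10.11 FPKM on average in Control, Ang II and QDG mice. Among the genes most like Slc30a1 were Tdp2 (0.94), which encodes a DNA repair enzyme, Sypl2 (0.91), Hmgn1 (0.896) and Surf4 (0.891). For Mtf1 the list was Snap23 (0.869), Firre (0.846), Rbm18 (0.818), Zcchc8 (0.797) and Abhd5 (0.784). These r are descriptions over 15 mice of 3 groups, given with no p.

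Between members the r with Slc30a1 was 0.785 for Mt1 and 0.819 for Mt2, which put Slc30a1 at rank 22 and rank 14 of 12365 genes by likeness to each. Over deviations from the group means these r were lower, 0.468 and 0.614. Mtf1 had an r of 0.175 with Mt1, 0.236 with Mt2 and 0.41 with Slc30a1, and over deviations from group means these were −0.109, −0.005 and 0.233. The Mtf1 sum includes its noncoding share here too.

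The other genes of metal handling were taken from lists of zinc exporters, zinc importers, genes linked to MTF1, copper genes and iron genes. Of the 2 other metallothioneins, Mt4 was not among the shared genes, and Mt3, known from brain, was at 0.2118 to 1.528 FPKM, or 9 to 63 reads, with a log2 fold change of −0.08 in Ang II vs. Control (adjusted p = 0.856 from limma). Of 9 further Slc30 exporters 6 were tested, and 0 passed limma's adjusted threshold in any comparison, with 1 at an unadjusted p under 0.05 for Ang II vs. Control, and 2 and 0 in the QDG comparison and in the QDG group against Control. Of all genes 22.7%, 16.4% and 14.4% passed that unadjusted criterion in these 3 comparisons, and the counts for the lists that follow are to be read against the same shares. The most abundant of them were Slc30a9 at 36.16 FPKM and Slc30a5 at 29.8 FPKM over all mice. Slc30a9, a transporter of mitochondria, had a log2 fold change of 0.12 in Ang II vs. Control (adjusted p = 0.273 from limma), and Slc30a5, a transporter of the Golgi, one of −0.22 (adjusted p = 0.619). Slc30a2, a zinc transporter of vesicles that was picked out after its values were seen, averaged 20.48 FPKM for Control, 29.97 for Ang II and 14.24 for QDG mice. Its log2 fold change in the QDG comparison was −0.92 (95% interval −1.50 to −0.34, adjusted p = 0.0981 from limma), and 4 of the 5 QDG mice were below the lowest Ang II mouse. The median log2 fold change of the 6 exporters was −0.0002 in Ang II vs. Control, against 0.0829 for all genes.

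Slc39 proteins carry zinc into the cytosol. Of the 14 listed 11 were tested, and again 0 passed limma's adjusted threshold in any comparison, with 0, 2 and 0 at an unadjusted p under 0.05 in the same order. Slc39a1, the most abundant at 29.65 FPKM, had 27.28 FPKM in Ang II and 32.44 FPKM in Ang II + QDG, and all Ang II + QDG mice were above all Ang II mice, as in 1.56% of all genes. Its log2 fold change there was 0.25 (95% interval 0.08 to 0.41, adjusted p = 0.112 from limma). Slc39a7, an importer of the endoplasmic reticulum at 23.1 FPKM, had one of −0.44 (95% interval −0.80 to −0.09, adjusted p = 0.193 from limma). The median of the 11 importers in Ang II vs. Control was 0.0865, close to that of all genes.

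Of 6 further genes linked to MTF1 in earlier work, 5 were tested and 0 passed limma's adjusted threshold, with 1 at an unadjusted p under 0.05 in each comparison. The most abundant were Gclc, which encodes the catalytic subunit of the enzyme that starts glutathione synthesis, at 92.28 FPKM, and Selenow, a selenoprotein, at 41.21 FPKM. Their log2 fold changes in Ang II vs. Control were −0.08 (adjusted p = 0.833 from limma) and 0.25 (adjusted p = 0.195 from limma). The median of the 5 was −0.0777 in that comparison, against 0.0829 for all genes. This list shares genes with the importer and iron lists, and it was not sorted by the direction of the link to MTF1.

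Among 12 copper genes, of which 11 were tested, Ccs and Cox17 were upregulated in Ang II vs. Control and 0 were downregulated, a share to be read against the 4.95% of all genes called higher. Both encode copper chaperones, Ccs for superoxide dismutase and Cox17 for cytochrome c oxidase. Ccs had 64.09, 91.38 and 76.06 FPKM on average in Control, Ang II and QDG mice, with every Ang II mouse above every Control mouse, as in 6.49% of all genes, and its log2 fold change in Ang II vs. Control was 0.51 (standard error 0.096, 95% interval 0.30 to 0.71, adjusted p = 0.012 from limma). It passed the test under every other setting and without each mouse. Cox17 had 42.7, 56.47 and 45.82 FPKM, and a log2 fold change of 0.40 (adjusted p = 0.0351 from limma) that missed the threshold without any 1 of 7 mice (Control mice 1, 3 and 5, Ang II mice 1, 2, 4 and 5), where it was 0.35 to 0.42 with an adjusted p of up to 0.0874. The Cox17 call was also lost with quantile normalization (0.32, adjusted p = 0.0751 from limma), with median scaling (0.30, adjusted p = 0.0766) and in a fit of only the 2 groups compared (0.40, adjusted p = 0.0643). In the QDG comparison 0 of the 11 passed limma's adjusted threshold and 3 had an unadjusted p under 0.05, and the log2 fold changes of Ccs and Cox17 were −0.27 (adjusted p = 0.178) and −0.30 (adjusted p = 0.156). Against Control 0 passed in the QDG group and 1 had an unadjusted p under 0.05. Sod1, the superoxide dismutase that CCS loads with copper, was the most abundant of the list at 552.3 FPKM, with a log2 fold change of −0.04 in Ang II vs. Control (adjusted p = 0.781 from limma). Atox1, the chaperone that delivers copper to the secretory pathway, followed at 132.4 FPKM with 0.15 (adjusted p = 0.305 from limma).

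**Figure D4:**
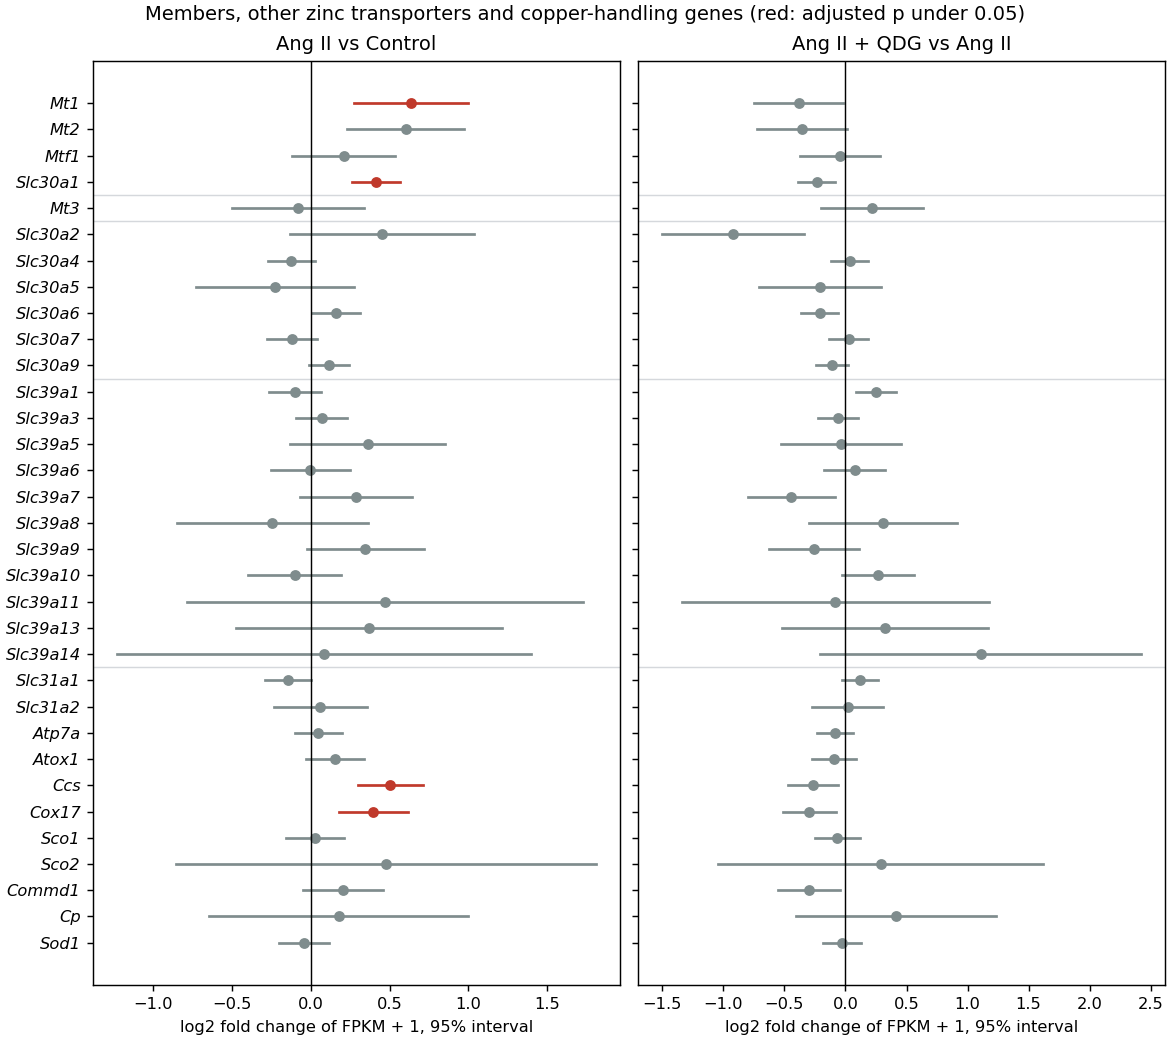
Log2 fold changes of log2(FPKM + 1) with their 95% intervals for the members, Mt3, the other Slc30 exporters, the Slc39 importers and the copper genes, in Ang II vs. Control on the left and in the QDG comparison on the right, with x axes of different range. Red marks an adjusted p under 0.05. Mt1, Slc30a1, Ccs and Cox17 are red on the left, and no gene is red on the right.

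Iron genes showed no call. Of 11 listed 10 were tested, and 0 passed limma's adjusted threshold in any comparison, with 0, 2 and 1 at an unadjusted p under 0.05. Fth1 and Ftl1, the ferritin chains that store iron, were the most abundant at 3842 and 2312 FPKM. In Ang II vs. Control they differed by −0.10 (adjusted p = 0.274 from limma) and 0.20 (adjusted p = 0.29 from limma) on the log2 scale. The median of the list was 0.13 in that comparison.

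Glucocorticoids are among the known inducers of Mt1 and Mt2, and 10 genes that respond to them were all tested. Only Fkbp5, a cochaperone of the glucocorticoid receptor, was called, upregulated in Ang II vs. Control and downregulated in the QDG comparison. This is 1 of 10 genes each time, where 4.95% of all genes were called higher in the first and 1.29% lower in the second. At an unadjusted p under 0.05 there were 2 of 10 for Ang II vs. Control, Fkbp5 and Zbtb16, the latter named after its values were seen (log2 fold change 1.11, adjusted p = 0.0959 from limma), 1 in the QDG comparison and 1 in the QDG group against Control. The FPKM of Fkbp5 was 31.88 to 41.03 for Control, 47.3 to 209.8 for Ang II and 26.17 to 37.04 for QDG mice, so that the Ang II mice overlapped with neither group. Among all genes 6.49% had every Ang II mouse above every Control mouse, and 3.44% had every QDG mouse below every Ang II mouse. The highest was Ang II mouse 3, which was also the highest for Mt1. These differences were 1.26 (standard error 0.28, adjusted p = 0.0226 from limma) and −1.42 (standard error 0.28, adjusted p = 0.0255 from limma) on the log2 scale. The call in Ang II vs. Control was lost without Control mouse 1, Control mouse 3 or Ang II mouse 5, with log2 fold changes of 1.24, 1.22 and 1.21 and adjusted p of 0.0526, 0.0552 and 0.0535 from limma. In the QDG comparison it was lost without Ang II mouse 2 or 5 or Ang II + QDG mouse 2, 3, 4 or 5, with an adjusted p of 0.0518 to 0.0675 from limma. A fit of only the 2 groups compared also lost both calls (adjusted p = 0.0643 and 0.0863 from limma). The most abundant others, Sgk1 at 60.3 FPKM and Klf9 at 57.1 FPKM, had log2 fold changes of −0.09 (adjusted p = 0.899 from limma) and 0.09 (adjusted p = 0.781 from limma) in Ang II vs. Control. The median of the 10 genes was 0.0153 in that comparison.

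**Figure D5:**
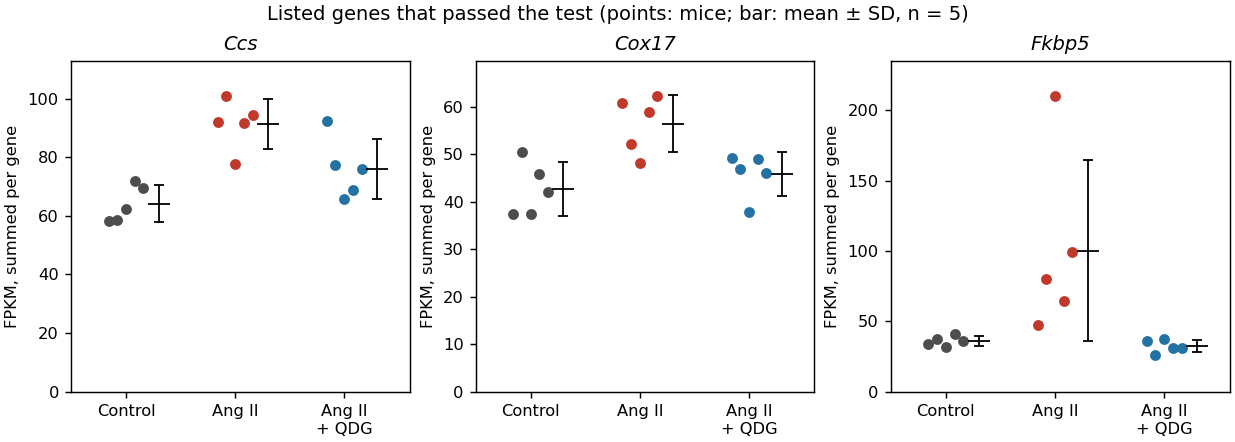
FPKM summed per gene for Ccs, Cox17 and Fkbp5, with 1 point per mouse in Control (grey), Ang II (red) and Ang II + QDG (blue), and the mean ± SD (n = 5) beside the points. For Ccs and Fkbp5 every red point is above every grey point, and for Fkbp5 the highest red point, at 209.8 FPKM, is far above the others.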

How the data were processed

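RNA from renal tissue of 15 mice, 5 a group, was depleted of rRNA and sequenced with paired ends by the authors. The study's methods also name a poly(A) selection kit, and which RNA the libraries hold was not settled here. Each deposited file gives 1 value per transcript. The deposited values were taken as FPKM, because 98.3% to 98.5% of low values (under 200 reads), once multiplied by transcript length, came within 0.02 of a whole number of reads. The scaling implies 68918000 to 81324000 reads or fragments per mouse. The submitters' processing notes name mm10 and limma. The aligner and assembler are not given in the sources used here. Of 31301 Ensembl transcripts, 31244 matched GENCODE M21, and 28863 that all 15 files share were summed per gene. The Control files list 41477 transcripts and the other files 42310, with 1423 only in Control files and 2256 absent from them, so transcripts listed in part of the files were left out of the sums. The 12432 assembled transcripts carry no gene name and were not used. Genes reaching 1 FPKM in 5 or more mice were tested with limma 3.58.1 (R 4.3.3, lmFit, then eBayes with its trend option). Values were log2(FPKM + 1), a scale that understates changes of low genes, with 12 residual degrees of freedom and two-sided p-values adjusted by Benjamini-Hochberg. Other scalings, filters, pseudocounts and fits, and leaving out each mouse, were tried as alternatives. Permutation tests used scipy 1.17.1, exact for the Mt1 to Mt2 ratio and with 100000 resamples for correlations. Named genes were the 4 members, the listed genes past the threshold, the 2 most abundant of each list and the 5 genes most like each member. Slc30a2, Zbtb16 and marker genes were named outside this rule. Of the genes chosen by the rule and of the marker genes, 2 are not reported here. The members and lists were chosen with earlier results of these data known. Promoter sequences are from RefSeq on GRCm38.p6, and all 4 members matched by symbol.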

Additional observations from a re-analysis of the deposited data

Results flagged for a closer look

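The ratio of Mt1 to Mt2 in Ang II mouse 3 was 3.46, and the other 4 Ang II mice had ratios of 2.543 to 2.767, so that the gap to the nearest mouse took up 0.756 of the range of the group. Values beyond 0.71 were marked by Dixon's 95% limit for 5 samples, in 15 sets of values examined (the 4 members and the ratio in each of 3 groups), and chance marks about 1 in 20 groups. The same mouse had the highest Mt1 level of the series, 287 FPKM, and the highest Fkbp5 level, 209.8 FPKM, whereas its Mt2 level of 83.0 FPKM was below that of Ang II mouse 5. None of the 12 groups of single members was marked.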

How the results depend on the processing

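In Ang II vs. Control the Mt1 difference passed the threshold under 4 of 8 other settings and missed it under quantile normalization (0.57), median scaling (0.53), removal of the mitochondrially encoded genes (0.62) and a fit of only the 2 groups compared (0.64, adjusted p = 0.0931 from limma). Leaving out 1 mouse gave 0.53 to 0.75 for Mt1, where 11 of 15 fits missed the threshold, and 0.49 to 0.70 for Mt2, where 4 of 15 passed it. Slc30a1 passed under all 8 settings and without each of the 15 mice. No member passed under any setting when the QDG group was compared with Ang II or with Control. Leaving out 1 mouse put Mtf1 in the QDG comparison (Ang II + QDG vs. Ang II) between −0.18 and 0.040, and without Ang II mouse 4 or Ang II + QDG mouse 2 it was 0.0069 and 0.040. Cox17 missed the threshold under quantile normalization (0.32), median scaling (0.30) and the fit of 2 groups (0.40), and Fkbp5, of these 8 settings, only under the fit of 2 groups, in both its called comparisons (adjusted p = 0.0643 and 0.0863 from limma). The alternatives for Ccs, Cox17 and Fkbp5 were chosen after seeing the data.

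The counts of genes called over all genes moved more. With only the 2 groups compared they were 456 in place of 735 in Ang II vs. Control. They were 58 in place of 224 in the QDG comparison and 4 in place of 16 in the QDG group against Control. The count of 16 became 80 with every annotated transcript listed. That setting took a transcript missing from a file as 0, and the Control files list other transcripts than the rest. Leaving out 1 mouse gave 338 to 797, 53 to 250 and 0 to 110. The first was lowest without Control mouse 1, the second without Ang II mouse 2 and the third without Control mouse 4. In Ang II vs. Control 612 genes were higher and 123 lower as deposited, 227 and 266 after quantile normalization, and 210 and 286 after median scaling. In the QDG comparison the split was 65 and 159 as deposited, 97 and 97 after quantile normalization, and 68 and 99 after median scaling. For the QDG group against Control it was 12 and 4 as deposited, 8 and 7 after quantile normalization, and 10 and 12 after median scaling. The cause was not tested.

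The log2 ratio of Mt1 to Mt2 changed sign with a pseudocount of 0.1 in the QDG group against Control (−0.00060). Without 1 mouse it was −0.048 to 0.076 in Ang II vs. Control, −0.10 to 0.060 in the QDG comparison and −0.070 to 0.092 in the QDG group against Control. No paired analysis was possible because the labels give no replicate numbers that groups share. The lowest counts were 71 reads for the retained-intron transcript of Mtf1, and 9 reads both for Mt3 and for a minor Mt1 transcript. Counting errors cover counting only.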
